A study of Mus musculus with 16 samples.

Results

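The mevalonate pathway from acetoacetyl-CoA to squalene was described here through 8 enzymes, chosen by name: Acat2, Hmgcs1, Mvk, Pmvk, Mvd, Idi1, Fdps and Fdft1. Rows of the array carried the symbols of 5 of the 8, namely Hmgcs1, Pmvk, Mvd, Idi1 and Fdps, each with 1 of 25697 rows, and all 5 passed the filter on dim rows that left 7788 genes to test. Acat2, Mvk and Fdft1 were not analysed here. The values are from livers of male C57BL/6 mice, labelled 6 months old, 1 Illumina bead array per mouse and 4 mice in each of 4 groups. WT_Chow and Tg_Chow are wild-type and CYP7A1 transgenic littermates on standard chow, and WT_WD and Tg_WD are the same genotypes on a Western diet with 42% of calories from fat and 0.2% cholesterol. The diets were fed for 4 months from an age of 12 to 14 weeks, and all 16 mice were fasted for about 16 h before the liver was taken. Neither the species of the transgene nor its promoter is named in the labels or the design text.

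The mevalonate pathway turns acetyl-CoA into isoprenoid units in the cytosol, the endoplasmic reticulum and peroxisomes. Those units are joined to farnesyl diphosphate, the branch point that feeds squalene and cholesterol on one side and prenylated proteins, dolichol and ubiquinone on the other. Its genes are classic targets of the transcription factor SREBP2, which is released from the membrane when sterols are scarce. In the liver the pathway also supplies cholesterol for bile acids, which CYP7A1 makes by the rate-limiting step of the classical route.

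Values are log2 signals after background correction and quantile normalization. The filter level was a row mean of 6.29, which 50% of the rows exceed, and signals near or under it lie close to the array's background. Arrays of the same group correlated at 0.931 to 0.953 and arrays of different groups at 0.918 to 0.942 (Spearman, raw signals of all rows). Arrays numbered 1 or 2 had a higher floor of raw signal (mean 5th percentile 58.3, n = 8) than arrays numbered 3 or 4 (53.6, n = 8), so values are also given within each of these 2 subsets of replicates. Cyp7a1, the gene named by the transgene, read 11.69 ± 0.42 (SD, n = 4) in WT_Chow, 7.06 ± 0.63 in Tg_Chow, 11.20 ± 1.02 in WT_WD and 6.60 ± 0.52 in Tg_WD. Its row was therefore lower, not higher, in Tg-labelled livers (log2 difference -4.62 on chow, limma adjusted p = 1.634e-06). Probe sequences were not used, so whether this row reads RNA of the transgene, of the mouse's own gene or of both was not tested. The row thus does not bear out the labels and cannot contradict them, and the genotype directions below are those of the labels. Bulk signals do not tell fewer cells of a type from less RNA per cell.

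Promoter windows from RefSeq (build GRCm38.p6), running from 250 bases before to 50 bases after an annotated start, were matched by symbol for 6 of the 8 listed genes: Acat2, Hmgcs1, Mvk, Mvd and Idi1 with 1 start each and Pmvk with 2. The windows of Hmgcs1, Mvd and Idi1, measured genes that moved together below and have 1 start each, are shown 5′ to 3′ on the gene's strand. Capitals mark the CCAAT box, the motif of NF-Y, a partner of SREBPs, and in Hmgcs1 also the sterol-response-like motif TCACNCCAC, each searched on both strands (ATTGG is the CCAAT box on the other strand).
Hmgcs1 (chr13:119690101-119690400, plus strand): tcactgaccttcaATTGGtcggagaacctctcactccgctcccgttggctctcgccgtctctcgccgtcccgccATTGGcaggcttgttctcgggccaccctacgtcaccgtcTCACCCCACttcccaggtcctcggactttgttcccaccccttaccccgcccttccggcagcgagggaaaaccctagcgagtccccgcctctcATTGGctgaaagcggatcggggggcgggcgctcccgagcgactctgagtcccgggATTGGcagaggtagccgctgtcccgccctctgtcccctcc
Mvd (chr8:122443373-122443672, minus strand): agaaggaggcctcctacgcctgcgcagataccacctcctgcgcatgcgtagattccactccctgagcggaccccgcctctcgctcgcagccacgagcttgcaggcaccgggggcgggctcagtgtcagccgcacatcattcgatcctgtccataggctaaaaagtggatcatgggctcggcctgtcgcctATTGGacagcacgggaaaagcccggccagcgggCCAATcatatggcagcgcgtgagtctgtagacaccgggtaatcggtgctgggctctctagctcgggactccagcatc
Idi1 (chr13:8885356-8885655, plus strand): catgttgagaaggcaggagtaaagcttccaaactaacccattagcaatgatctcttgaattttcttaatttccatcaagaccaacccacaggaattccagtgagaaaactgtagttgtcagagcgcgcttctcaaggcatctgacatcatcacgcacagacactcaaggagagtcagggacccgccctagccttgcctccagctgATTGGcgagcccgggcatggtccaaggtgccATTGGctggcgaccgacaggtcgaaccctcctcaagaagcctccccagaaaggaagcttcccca
Hmgcs1 held 1 sterol-response-like match, beginning 137 bases before the start, and 4 CCAAT boxes. The windows of Acat2, Mvk, Pmvk, Mvd and Idi1 held 0 sterol-response-like matches. Mvd and Idi1 held 2 CCAAT boxes each, Mvk held 5, 1 of the 2 Pmvk windows held 1, and Acat2 held 0. Among all 32851 promoter windows, 1.24% held the sterol-response-like motif and 37.4% a CCAAT box. No match overlapped another in the windows shown. The GC box GGGCGG was found 3 times in Hmgcs1, 2 times in Mvk, 1 time each in Acat2, Mvd and Idi1 and 0 times in Pmvk. Of all windows, 35.7% held at least 1. These matches describe letters only.

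Hmgcs1 encodes cytosolic HMG-CoA synthase, which joins acetoacetyl-CoA and acetyl-CoA. The 4 WT_Chow arrays read 12.85, 12.26, 11.91 and 11.48 for Hmgcs1, and the 4 Tg_Chow arrays read 13.92, 14.21, 14.13 and 14.18. The WT_WD arrays read 11.89, 11.70, 11.81 and 11.66, and the Tg_WD arrays 14.64, 14.76, 14.60 and 14.76. Every Tg-labelled array lay above every WT-labelled array, with a gap of 1.07 between the highest WT (12.85) and the lowest Tg value (13.92). In Tg_WD the Hmgcs1 row ranked between 4 and 14 of 25697 rows by raw signal, among the brightest on the array. Its raw mean there was 25465, and the highest raw signal of the series was 33943. Whether differences between signals this bright are compressed was not tested.

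Pmvk encodes phosphomevalonate kinase, which adds the second phosphate to mevalonate. Its row read 7.05, 7.45, 7.28 and 7.37 in WT_Chow and 8.75, 8.99, 8.83 and 8.76 in Tg_Chow. In WT_WD it read 6.88, 6.81, 6.80 and 6.88, and in Tg_WD 9.32, 9.41, 9.21 and 9.38. The 4 groups of Pmvk values did not overlap anywhere, and WT_WD was the lowest and Tg_WD the highest.

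Mvd encodes the decarboxylase that makes isopentenyl diphosphate, the basic isoprenoid unit. The WT_Chow values of Mvd were 6.81, 6.31, 6.14 and 6.20, and those of Tg_Chow 8.15, 8.48, 8.61 and 8.61. The WT_WD values were 5.92, 6.16, 6.18 and 6.22, and those of Tg_WD 9.83, 9.55, 9.19 and 9.29. All 4 WT_WD arrays and 2 of the WT_Chow arrays lay under the filter level of 6.29. Mvd was thus near background in WT-labelled livers and well above it in all 8 Tg-labelled livers. The filter used the mean over all arrays, which was 7.60 for Mvd. That mean rested mostly on Tg_Chow (8.46) and Tg_WD (9.46), against 6.37 in WT_Chow and 6.12 in WT_WD. With no filter on signal Mvd was also called higher with Tg on each diet, and its interaction also passed.

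Idi1 encodes the isomerase that converts isopentenyl diphosphate to its reactive partner, dimethylallyl diphosphate. Idi1 read 7.12, 7.09, 6.87 and 6.70 in WT_Chow and 8.95, 8.67, 9.47 and 9.70 in Tg_Chow. On the Western diet it read 6.30, 6.37, 6.40 and 6.51 in WT and 9.10, 9.64, 9.98 and 10.01 in Tg. Genotypes were separated by 1.55 between their nearest arrays, while Tg_Chow and Tg_WD overlapped.

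Fdps encodes farnesyl diphosphate synthase, the last enzyme before the pathway divides. Its values were 9.99, 9.92, 9.24 and 9.12 in WT_Chow and 12.40, 12.80, 12.70 and 12.75 in Tg_Chow. They were 8.88, 8.55, 8.58 and 8.45 in WT_WD and 13.50, 13.39, 12.98 and 13.37 in Tg_WD. The gap between WT-labelled and Tg-labelled arrays was 2.41, the widest of the 5 enzymes, and the 4 groups did not overlap.

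**Figure D1:**
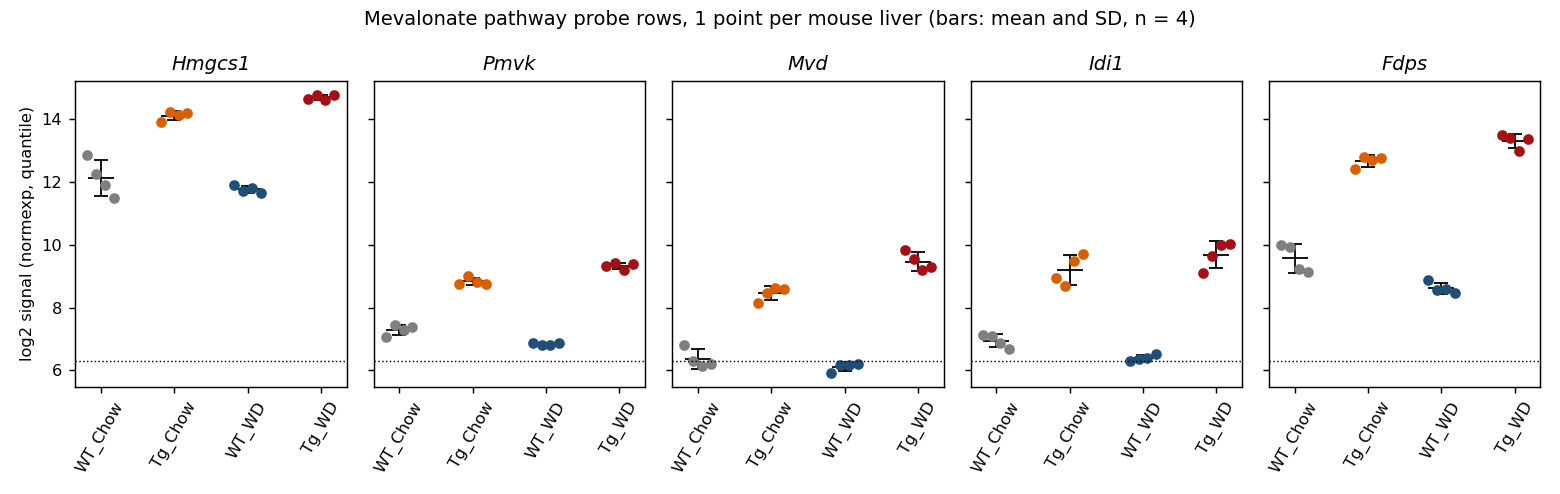
Log2 signal of the 5 measured enzymes, 1 point per mouse liver, with the mean and SD of each group (n = 4) and the filter level of 6.29 as a dotted line. In each panel all Tg-labelled points lie above all WT-labelled points, and the WT_WD mean is the lowest and the Tg_WD mean the highest.

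The comparison of genotypes asks how liver transcripts differ between Tg-labelled and WT-labelled littermates on the same diet. On chow all 5 enzymes were higher in Tg_Chow, by a median of 4.27-fold, where 4.55% of all tested genes were called higher (5.42% lower) and the median gene moved by -0.0025 on the log2 scale. A gene was called at a limma adjusted p under 0.05 over all 7788 genes. Fdps rose most, 8.56-fold (log2 fold change 3.10, SE 0.18, 95% interval 2.72 to 3.47, adjusted p = 4.922e-09), and only 1 of 7788 genes, Sqle, rose more. Idi1 rose 4.77-fold (log2 2.25, SE 0.21, adjusted p = 1.987e-06), Mvd 4.27-fold (2.10, SE 0.16, adjusted p = 1.461e-07) and Hmgcs1 3.96-fold (1.99, SE 0.19, adjusted p = 3.17e-06). Pmvk rose least, 2.92-fold, but with the smallest error (1.54, SE 0.084, adjusted p = 3.217e-09). The groups did not overlap for any of the 5, against 13.5% of all tested genes. Over all genes the split of calls depended on the scaling, with 354 higher and 422 lower after quantile normalization and 183 higher and 1205 lower after median scaling, and all 5 enzymes were called higher under both. Over all tested genes same-numbered arrays of the chow groups deviated weakly together (correlation 0.14 to 0.24). The enzymes did not share this for replicate 1, the highest WT_Chow array for 4 of the 5 and the lowest Tg_Chow array for 4 of the 5. With the replicate number as a block in these 2 groups alone all 5 enzymes were again called higher (limma, highest adjusted p = 0.003521).

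On the Western diet all 5 were again higher in Tg-labelled livers, by a median of 9.77-fold (the value of Idi1), where 6.51% of tested genes were called higher (8.5% lower) and 23.1% had groups without overlap. Fdps rose 25.9-fold (log2 fold change 4.69, SE 0.18, 95% interval 4.32 to 5.07, adjusted p = 5.266e-12), and 2 genes of 7788 rose more. Median scaling gave 294 genes higher and 1130 lower in place of 507 and 662, with all 5 enzymes still called higher. Mvd rose 10.2-fold (log2 3.34, SE 0.16, adjusted p = 8.52e-11), a size that is uncertain because its WT_WD mean of 6.12 lies under the filter level. Idi1 read 6.30 to 6.51 in WT_WD, close to that level, so its 9.77-fold rise (3.29, SE 0.21), and with it the median, is uncertain in size as well. Hmgcs1 rose 7.60-fold (2.93, SE 0.19) and Pmvk 5.61-fold (2.49, SE 0.084), and the adjusted p was 7.427e-09 for Idi1, 1.095e-08 for Hmgcs1 and 2.851e-12 for Pmvk. The order of the fold changes was the same on both diets, Fdps highest and Hmgcs1 and Pmvk lowest, but for Mvd and Idi1, which changed places and differed by less than their SE on the Western diet.

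All 5 enzymes were also called higher in Tg on each diet from either subset of the replicates alone (limma, 2 arrays per group). On chow the log2 differences, first from replicates 1 and 2 and then from replicates 3 and 4, were 1.52 and 2.46 for Hmgcs1, 1.62 and 1.47 for Pmvk, 1.75 and 2.44 for Mvd, 1.71 and 2.80 for Idi1 and 2.65 and 3.55 for Fdps. On the Western diet the same pairs were 2.91 and 2.95 for Hmgcs1, 2.52 and 2.45 for Pmvk, 3.65 and 3.04 for Mvd, 3.04 and 3.54 for Idi1 and 4.73 and 4.66 for Fdps. The subsets lay farther apart on chow for Hmgcs1, Mvd, Idi1 and Fdps, and for each of these 4 genes WT_Chow replicates 1 and 2 read higher than replicates 3 and 4.

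**Figure D2:**
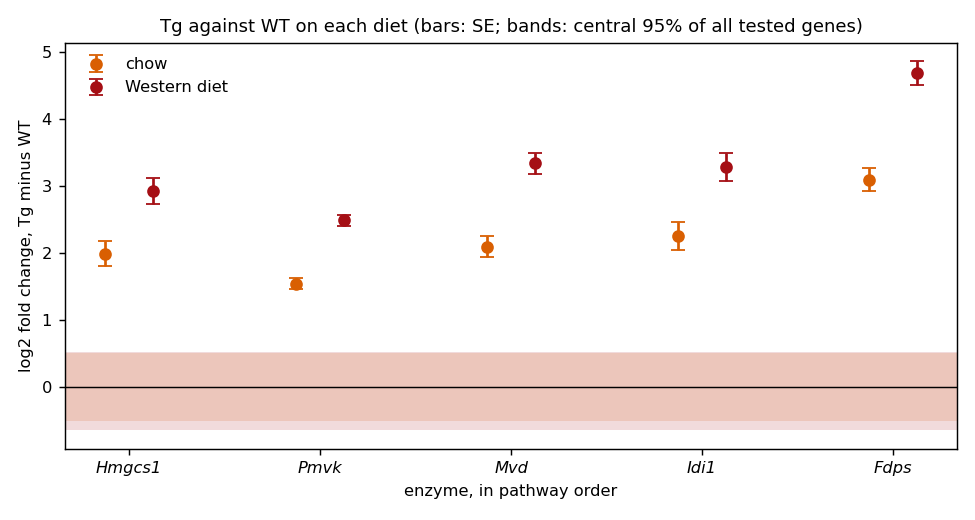
Log2 fold change of Tg against WT on chow and on the Western diet for each enzyme in pathway order, with limma's SE; the bands hold the central 95% of all 7788 tested genes on each diet. All 10 points lie above the bands, with Fdps highest at 3.10 and 4.69.

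The next comparison was Western diet against chow in WT-labelled livers. All 5 enzymes had lower means on the Western diet, and 2 of them passed the test, where 8.06% of all tested genes were called lower (10.7% higher). Fdps fell 1.94-fold (log2 difference -0.95, SE 0.18, 95% interval -1.33 to -0.58, adjusted p = 0.001113), and 35 of 7788 genes fell more. Pmvk fell 1.36-fold (-0.44, SE 0.084, adjusted p = 0.001251). Idi1 did not pass (-0.55, SE 0.21, adjusted p = 0.07359), although its groups did not overlap. Hmgcs1 (-0.36, 95% interval -0.76 to 0.039, adjusted p = 0.202) and Mvd (-0.25, 95% interval -0.57 to 0.083, adjusted p = 0.2962) did not pass, and their groups overlapped. Mvd means were 6.37 in WT_Chow and 6.12 in WT_WD, near and under the filter level of 6.29. So close to background its test cannot decide whether Mvd fell. Groups did not overlap for 3 of the 5, against 21.9% of all genes.

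The diet difference of Pmvk was nearly the same from replicates 1 and 2 (-0.41) as from replicates 3 and 4 (-0.48), but it passed only in the second subset (adjusted p = 0.1509 and 0.03625). That of Fdps was -1.25 from the first subset and -0.66 from the second. Hmgcs1 was at -0.76 and 0.040 and Mvd at -0.52 and 0.031, so neither kept its direction in the second subset. For Mvd these differences lie between values near background. Idi1 was at -0.77, which passed (adjusted p = 0.03475), and -0.32, which did not. Idi1 also passed in a fit of only the WT groups. Without WT_Chow replicate 4 alone, Hmgcs1 passed the test (-0.57, adjusted p = 0.01622), and Idi1 passed when Tg_Chow replicate 2, Tg_Chow replicate 4 or Tg_WD replicate 1 was left out (lowest adjusted p = 0.04142).

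In Tg-labelled livers the diet difference ran the other way. All 5 enzymes had higher means on the Western diet and 3 passed, where 5.06% of tested genes were called higher (4.66% lower) and the groups of 17% did not overlap. Mvd rose 2.00-fold (log2 difference 1.00, SE 0.16, 95% interval 0.67 to 1.33, adjusted p = 0.0009269). Fdps rose 1.56-fold (0.64, SE 0.18, adjusted p = 0.03014) and Pmvk 1.42-fold (0.50, SE 0.084, adjusted p = 0.00156). Hmgcs1 did not pass (0.58, 95% interval 0.18 to 0.98, adjusted p = 0.06269) although its groups did not overlap, and Idi1 did not pass (0.49, 95% interval 0.052 to 0.92, adjusted p = 0.145). The groups were apart for 4 of the 5.

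The Fdps call in Tg-labelled livers was lost when any 1 of Tg_Chow replicates 1 and 3 or Tg_WD replicates 1, 2 and 4 was left out (log2 0.55 to 0.75 over all 16 omissions, highest adjusted p = 0.09151). Leaving out WT_Chow replicate 1 or 4 made Hmgcs1 pass (lowest adjusted p = 0.00625), and leaving out Tg_WD replicate 1 made Idi1 pass (0.68, adjusted p = 0.04475). From replicates 1 and 2 and from replicates 3 and 4 the differences were 1.38 and 0.63 for Mvd, 0.84 and 0.45 for Fdps, 0.50 and 0.50 for Pmvk, 0.63 and 0.53 for Hmgcs1 and 0.56 and 0.41 for Idi1. All 5 were above 0 in both subsets, and 2 passed in the first (Mvd and Fdps) and 1 in the second (Mvd).

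**Figure D3:**
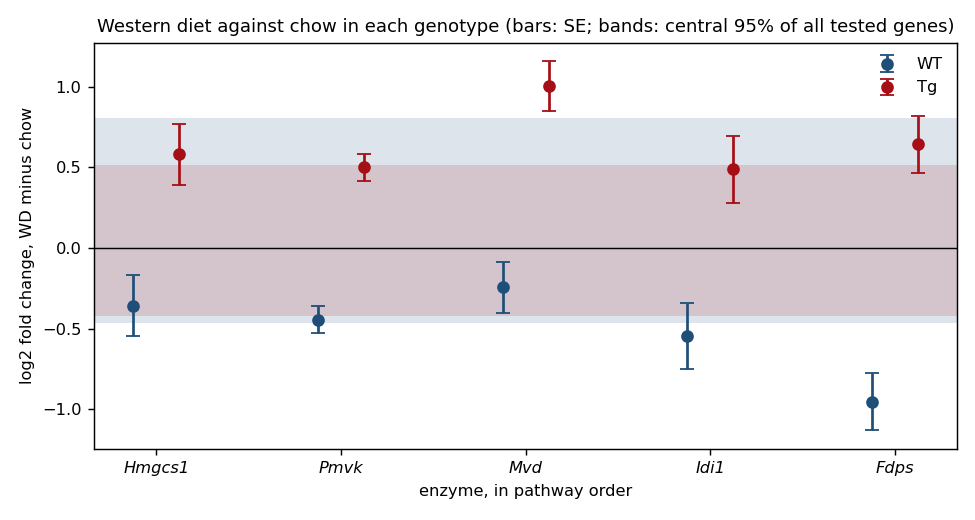
Log2 difference of Western diet minus chow for each enzyme in WT-labelled and Tg-labelled livers, with limma's SE and bands for the central 95% of all tested genes. The WT points run from -0.25 (Mvd) to -0.95 (Fdps) and the Tg points from 0.49 (Idi1) to 1.00 (Mvd).

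The interaction asks whether the genotype difference itself differed between diets. For all 5 enzymes the difference was larger on the Western diet and passed the test, where 2.18% of all tested genes were called in that direction (3.25% in the other). Fdps had the largest interaction, 1.60 on the log2 scale (SE 0.25, 95% interval 1.07 to 2.13, adjusted p = 0.001648), followed by Mvd at 1.25 (SE 0.22, adjusted p = 0.003747), whose size is uncertain because WT values lie near background. Pmvk was at 0.95 (SE 0.12, adjusted p = 0.0004832), and its call held with any 1 array left out. Idi1 (1.03, SE 0.29, adjusted p = 0.04847) and Hmgcs1 (0.94, SE 0.27, adjusted p = 0.0498) passed narrowly.

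Leaving out 1 array ended the Hmgcs1 interaction call in 14 of 16 cases, all but WT_Chow replicates 1 and 4, with values from 0.70 to 1.15. It ended the Idi1 call in 12 of 16 cases, all but WT_Chow replicate 4, Tg_Chow replicates 3 and 4 and Tg_WD replicate 1, with values from 0.86 to 1.23. Fdps (1.45 to 1.75) and Mvd (1.10 to 1.34) kept their calls in all 16. From replicates 1 and 2 alone the interaction was 2.08 for Fdps and 1.90 for Mvd, which passed, and 1.39 for Hmgcs1, 1.33 for Idi1 and 0.91 for Pmvk, which did not. From replicates 3 and 4 alone it was 1.11 for Fdps, 0.60 for Mvd, 0.49 for Hmgcs1, 0.74 for Idi1 and 0.99 for Pmvk, and 0 of 5 passed limma's test (lowest adjusted p = 0.05489; 5 of 5 at an unadjusted p under 0.05). The interaction was above 0 in both subsets for each enzyme, and the subsets differed least for Pmvk.

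**Figure D4:**
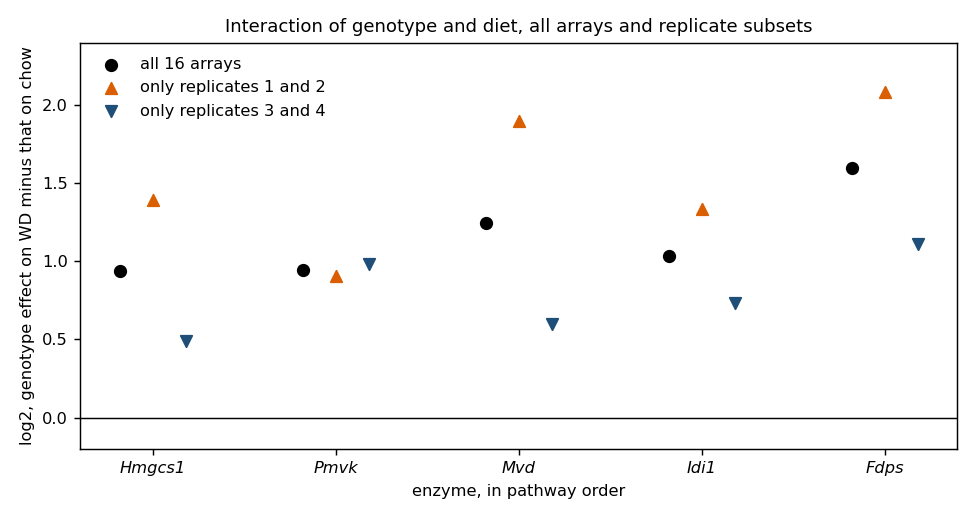
Genotype effect on the Western diet minus that on chow (log2) for each enzyme, from all 16 arrays and from each subset of the replicates alone (2 arrays per group). All 15 points are above 0, and those of replicates 3 and 4 are lower than those of replicates 1 and 2 for each enzyme but Pmvk.

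The order of group means was the same for all 5 enzymes: WT_WD lowest, then WT_Chow, Tg_Chow and Tg_WD. Neighbours in that order differed beyond their spread between WT_Chow and Tg_Chow for all 5. WT_WD and WT_Chow did not pass the test for Hmgcs1, Mvd and Idi1, nor did Tg_Chow and Tg_WD for Hmgcs1 and Idi1.

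Livers of a group also varied among themselves. In WT_Chow the SD was 0.58 for Hmgcs1 and 0.45 for Fdps, above the 95th percentile of all tested genes in that group (0.37), while Pmvk had an SD of 0.17 and the median gene 0.14. Replicate 1 was the highest WT_Chow array for 4 of the 5 enzymes and replicate 4 the lowest for 3. In Tg_Chow replicate 1 was the lowest for 4 of the 5, and in Tg_WD replicate 3 was. Idi1 varied most in Tg-labelled livers, with an SD of 0.47 in Tg_Chow and 0.42 in Tg_WD, both above the 95th percentile of all genes (0.31 and 0.28), as was Mvd in Tg_WD (0.29). In WT_WD the 5 enzymes had SDs from 0.043 (Pmvk) to 0.18 (Fdps), and no enzyme passed the 95th percentile of 0.25.

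Genes downstream of squalene and around the pathway were read from lists drawn from general knowledge. Of the genes listed for sterol synthesis, 11 were tested. On chow 9 of the 11 rose and 0 fell with Tg, by a median of 3.43-fold, where 4.55% of all tested genes rose. On the Western diet 11 of 11 rose by a median of 7.18-fold, where 6.51% of all tested genes rose. Sqle, the squalene epoxidase directly after the pathway described here, rose 10.5-fold on chow (log2 3.39, SE 0.16) and by a log2 difference of 4.87 on the Western diet (SE 0.16), a size that is uncertain because its WT_WD mean of 6.27 lies under the filter level. With diet in WT-labelled livers 8 of the 11 fell, against 8.06% of all tested genes. They were led by the methyl sterol oxidase Msmo1 (-1.32) and the sterol reductase Tm7sf2 (-1.29). In Tg-labelled livers 3 of the 11 rose with diet, against 5.06% of all tested genes, led by the desaturase Sc5d (1.00). The interaction passed for 9 of the 11 in the same direction as for the mevalonate enzymes, against 2.18% of all tested genes. Its median was 1.22 for these 11 and 1.03 for the 5 mevalonate enzymes, so it was not particular to the latter.

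Other branches draw on farnesyl diphosphate without making sterol. Of 13 tested genes for prenylation, dolichol and ubiquinone, 2 rose and 0 fell on chow with Tg, where 4.55% of all tested genes rose and 5.42% fell, the prenyl transferase subunit Rabggtb (0.32) and the prenyl protease Rce1 (0.26). On the Western diet 1 rose, Rabggtb (0.31), and 1 fell, the ubiquinone enzyme Coq2 (-0.32), where 6.51% of all tested genes rose and 8.5% fell. With so few genes these counts do not set the branches apart from all tested genes. The median log2 difference of these 13 was 0.015 on chow and 0.022 on the Western diet, against 2.10 and 3.29 for the 5 mevalonate enzymes. Ggps1, the synthase of geranylgeranyl diphosphate, read 6.00 to 6.06 as group means, under the filter level, and was not tested.

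Enzymes that supply acetyl-CoA or acetoacetyl-CoA in the cytosol rose with Tg. For 3 of 4 (Acss2, Acly and Slc25a1) the interaction passed in the same direction as for the mevalonate enzymes, against 2.18% of all tested genes. Of 4 tested, 2 rose on chow, against 4.55% of all tested genes, the acetoacetyl-CoA synthetase Aacs (0.99, SE 0.25) and the citrate lyase Acly (0.50, SE 0.11). All 4 rose on the Western diet, where 6.51% of all tested genes rose. Aacs was at 1.76, Acly at 1.25, the acetyl-CoA synthetase Acss2 at 1.20 and the citrate carrier Slc25a1 at 0.81. The mitochondrial thiolase Acat1, which makes acetoacetyl-CoA for ketone bodies, did not pass between genotypes (0.50 on chow, adjusted p = 0.07265, and 0.060 on the Western diet, adjusted p = 0.8601). Acat1 fell with the Western diet by 0.83 in WT and by 1.27 in Tg (adjusted p = 0.002371 and 0.0003341), so in Tg-labelled livers its diet difference and that of Mvd, Fdps and Pmvk had opposite signs.

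Acat3, a neighbour and close relative of Acat2, did not pass between genotypes (-0.51 on chow, adjusted p = 0.08289, and -0.11 on the Western diet, adjusted p = 0.7484) and rose with diet in Tg (0.80, adjusted p = 0.01102). Idi2, the relative of Idi1, read 5.98 to 6.05 as group means, under the filter level, and was not tested. Probe sequences were not used here, so how far relatives share a signal with the rows of the pathway was not tested.

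Of 10 listed genes that control SREBP or sterol uptake, 7 were tested. Srebf2, which encodes SREBP2, rose with Tg by 0.57 on chow (SE 0.16, adjusted p = 0.03218) and by 1.05 on the Western diet (adjusted p = 0.000243), and Insig1, which holds SREBPs back when sterols are plentiful, by 1.21 and 1.85. In all, 4 of 7 rose on chow, against 4.55% of all tested genes. On the Western diet 4 of 7 rose, against 6.51%, and 1 fell, against 8.5%, the latter Srebf1 (-0.51), which encodes SREBP1. Scap, the escort of SREBPs, had no call on chow (-0.083) and rose on the Western diet (0.54).

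Markers of other liver cells moved with some of these groups. Hepatocyte markers, all 5 with a row, summed to 46330.4 to 59120.4 in raw signal over the 16 arrays. Most of that sum came from Ttr and Apoa1, with raw group means from 21205 to 25576. Alb read only 6.44 to 6.82 as group means, near the filter level, and Tat lay under that level in every group. Between genotypes 0 of 4 tested passed limma's test (1, Cps1 on chow, had an unadjusted p under 0.05). With diet 1 of 4 was called lower in WT and 1 of 4 in Tg, against 8.06% and 4.66% of all tested genes. Of 7 macrophage markers, 6 had a row. Their raw sum ran from 804.4 to 2167 in WT_Chow, 1958 to 3480 in Tg_Chow, 3490 to 4838 in WT_WD and 1950 to 3897 in Tg_WD. With Tg 3 of 5 tested rose on chow and 1 of 5 on the Western diet, where 4.55% and 6.51% of all tested genes rose. The riser on the Western diet was Marco (means 6.38 in WT_WD and 7.82 in Tg_WD), the only tested marker with a higher mean in Tg_WD. The median log2 difference of the 5 was 0.83 on chow but -0.36 on the Western diet, where 0 were called lower. With diet in WT 4 of 5 rose, against 10.7% of all tested genes. Stellate and fibroblast markers, all 5 with a row, summed to 5022 to 5729 in WT_WD and to 2865 to 4945 in the other groups. On the Western diet 4 of 5 fell with Tg, against 8.5% of all tested genes. With diet in WT 4 of 5 rose, against 10.7%. None of the other marker lists had more than 1 gene called in a comparison, and no marker is listed at 0. The median macrophage and stellate sums were highest in WT_WD, the group in which the 5 enzymes had their lowest means. The median endothelial (982.6) and neutrophil (457.1) sums were highest there too, and narrowly the biliary (232.8) and lymphocyte (230.9) sums. The part of these cells in the result was not tested.

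Some other genes followed the enzymes closely over the 16 arrays. Closeness was the root mean square difference between a gene's log2 values, centred on its mean, and the average of the 5 centred enzymes. The 6 nearest of the other tested genes were Lss (0.16), Nsdhl (0.24), Hsd17b7 (0.33), Stard4 (0.40), Rdh11 (0.41) and Dhcr7 (0.47), against 1.43 for the median tested gene. Among the enzymes themselves it was 0.22 for Hmgcs1 and Mvd, 0.26 for Idi1, 0.43 for Pmvk and 0.60 for Fdps, whose range was wider than the average. Each enzyme is itself part of that average, which shortens its distance, so these 5 values cannot be set against those of other genes. Lss encodes lanosterol synthase, and Nsdhl, Hsd17b7 and Dhcr7 later sterol enzymes, while Stard4 carries sterol and Rdh11 reduces retinal. The same 6 genes were nearest in the authors' own log2 values. Lss, the nearest, rose with Tg by 2.28 on chow and 3.49 on the Western diet, fell with diet in WT by 0.57 and rose with diet in Tg by 0.65, values that describe the likeness by which it was chosen.

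**Figure D5:**
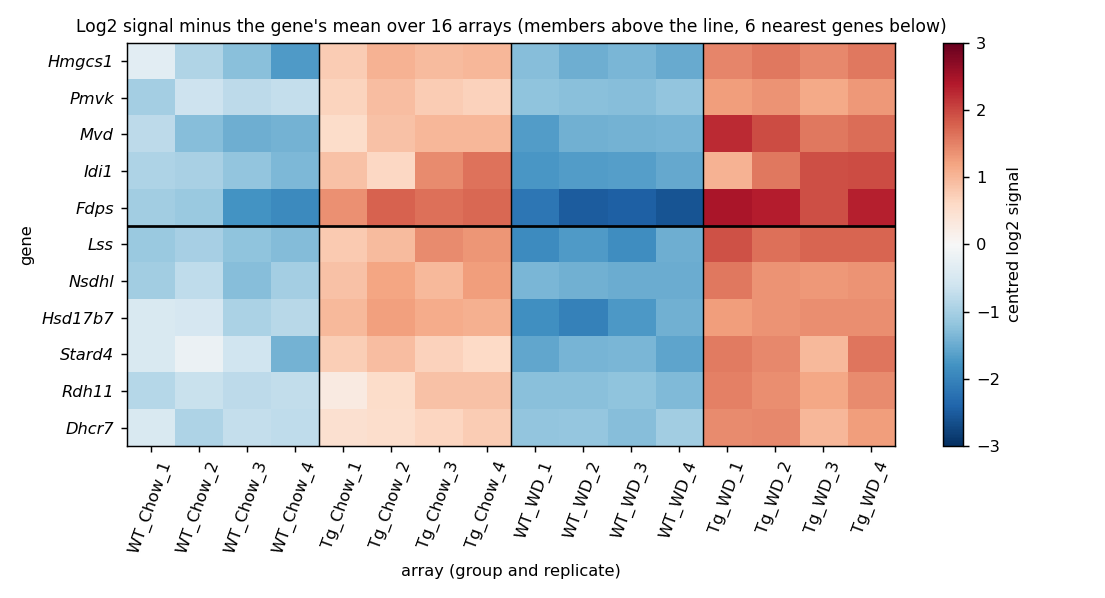
Log2 signal of the 5 enzymes and of the 6 nearest other genes in each of the 16 arrays, minus each gene's mean over the arrays (colour scale from -3 to 3). WT-labelled columns are blue and Tg-labelled columns red for every gene shown, most strongly for Fdps on the Western diet.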

How the data were processed

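The authors deposited 1 file per array that holds linear raw signal intensity in 25697 rows, per the file headers, without detection p-values, control rows or slide names. They also deposited a table of log2 values whose scaling no label or header states. Its column medians were 6.25 to 6.26, its largest difference from log2 of quantile-normalized intensities was 0.063, and it served as an alternative. Intensities were corrected by normexp (offset 50), quantile-normalized and taken to log2 with limma 3.58.1 in R 4.3.3. Rows in the upper 50% by mean were kept, symbols came from the platform annotation (23978 rows named, 1719 unnamed), and the row of highest mean stood for a gene. Shared values that carried several symbols were left out. One limma fit with 4 group means (12 residual degrees of freedom) gave all comparisons over 7788 genes, with Benjamini-Hochberg adjustment. Calls need an adjusted p under 0.05, and the procedure was tested on simulated data. The members, lists and tests were chosen with earlier results of these data known.

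Named genes are the members, Cyp7a1, the relatives Acat1, Acat3 and Idi2, Sqle and Srebf2. Also named are up to 4 called genes of largest change per list and comparison, and the 6 nearest genes. Ggps1, Cps1, Ttr, Apoa1, Alb, Tat and the uncalled value of Scap were named after their values were seen. Some genes of the rule are not reported here. Samples were grouped by title. Labels do not say that replicate numbers pair mice across groups; in their deviations from group means, the 4 same-numbered pairs of WT_Chow and Tg_Chow correlated at 0.14 to 0.24, each best with its own number, so these 2 groups were also fitted with the number as a block. The other 20 pairs ran from -0.21 to 0.20, and in no other comparison were all 4 over 0.1. The number of arrays limits the precision. Alternatives were no background correction, median scaling, the authors' log2 values, no filter, the mean of all distinct rows, only the groups compared, the replicate number as a block, 1 array left out and, added after seeing the data, the 2 subsets of the replicates and the block within the chow groups.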

Additional observations from a re-analysis of the deposited data

Results flagged for a closer look

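With all arrays the genotype effect differed between diets for all 5 measured enzymes, by a test of the difference itself (the limma interaction). The log2 interaction was 0.94 for Hmgcs1, 0.95 for Pmvk, 1.25 for Mvd, 1.03 for Idi1 and 1.60 for Fdps. Hmgcs1 (adjusted p = 0.0498) and Idi1 (adjusted p = 0.04847) passed narrowly, and neither passed with the authors' log2 values. Leaving out any 1 of 14 arrays ended the Hmgcs1 call, and any 1 of 12 arrays the Idi1 call. From replicates 3 and 4 alone 0 of 5 passed (5 at an unadjusted p under 0.05). No array stood apart from the other 3 of its group by Dixon's test for any enzyme (20 sets of 4 arrays tested; chance marks about 1 set in 20).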

How the results depend on the processing

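All 5 enzymes were called higher with Tg on each diet under every alternative run, leave-one-out and replicate subsets included. With diet in WT, 2 or 3 of 5 were called in every alternative, but not always the same genes: Fdps was called in all, Pmvk in all but that with only replicates 1 and 2, Idi1 with only the groups compared, with the replicate subsets as a term, with only replicates 1 and 2 and in 3 of 16 omissions, and Hmgcs1 with median scaling and in 1 of 16. With diet in Tg it was 3, and 2 to 4 under the alternatives, but 1 with only replicates 3 and 4. The count for the interaction was 5, but 4 with median scaling (Idi1 lost, adjusted p = 0.06396), 3 with the authors' log2 values, 3 with no filter on signal, 2 with only replicates 1 and 2 and 0 with only replicates 3 and 4 (limma, 2 arrays a group; 5 at an unadjusted p under 0.05). It ran from 3 to 5 with 1 array left out, at 3 in 11 of 16 cases; Hmgcs1 and Idi1 were the genes lost. The replicate number as a block moved Hmgcs1's interaction to an adjusted p of 0.06009 and ended no other call, with 4 of 5 interaction calls under the block and 403 against 423 over all genes. In the chow groups alone the block gave 582 calls over all genes, against 311 without it, and 5 of 5 enzymes. In replicates 3 and 4 alone the diet difference in WT turned to 0.040 for Hmgcs1 and 0.031 for Mvd; the cause was not tested. Over all genes, calls for genotype on chow numbered 776, but 311 with only the groups compared, 1388 with median scaling and 418 without WT_Chow replicate 3, which also took the interaction from 423 to 262. Leaving out Tg_WD replicate 4 took diet in Tg from 757 to 467. With only 2 arrays a group, calls over all genes numbered 92, 362, 596, 178 and 46 from replicates 1 and 2 and 169, 301, 410, 47 and 10 from replicates 3 and 4, in the order genotype on chow (776 from all arrays), genotype on the Western diet (1169), diet in WT (1461), diet in Tg (757) and interaction (423). Median scaling lowered the share of calls that were higher from 45.6% to 13.2% on chow and from 43.4% to 20.6% on the Western diet, and left the 5 enzymes higher. Signals near background limit Mvd in WT-labelled livers, where folds are uncertain in size.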
